A study of Mus musculus with 30 samples.

Results

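Protein phosphatase 2A (PP2A) is described here through the mRNAs of 10 of its subunit genes in cultured mouse spermatogonial stem cells (SSCs). The genes were taken as a list of symbols, with no threshold on a measured value, although earlier results of these data were known when the list was made. They are the catalytic subunit genes *Ppp2ca* and *Ppp2cb*, the scaffold genes *Ppp2r1a* and *Ppp2r1b*, and 6 regulatory genes. The regulatory genes belong to the B55 family (*Ppp2r2a* and *Ppp2r2d*) and the B56 family (*Ppp2r5a*, *Ppp2r5c*, *Ppp2r5d* and *Ppp2r5e*). Of the 10 genes, 8 had an mRNA level among 13904 genes, 8 had half-lives among 5806 transcripts, and 6 had both. *Ppp2r1a* and *Ppp2r5d* had half-lives only, and *Ppp2r1b* and *Ppp2r5c* had an mRNA level only.

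The cells came from a Nanos2TAG/+ line (line 4) and a Nanos2TAG/TAG line (line 5), both derived from testes of postnatal day 7 males of a mixed C57BL/6 and DBA/2J background. In the tagged allele a V5, Myc, PreScission, His and EGFP tag precedes NANOS2, an RNA-binding protein needed for SSC maintenance. Both lines therefore carry the tag and express NANOS2, each genotype is 1 line, and no line without NANOS2 is among the samples. The cells were grown on mouse embryonic fibroblast feeders. Total RNA depleted of ribosomal RNA was sequenced once per line, after QIAzol extraction for the Nanos2TAG/+ library and Trizol extraction for the Nanos2TAG/TAG library. Genotype, line and reagent cannot be told apart in the differences below, which have no replicate check. mRNA half-lives were measured by SLAM-seq, in which RNA labeled with 4-thiouridine is followed through a chase by its T to C conversions. The labels list 12 SLAM-seq libraries per line, with chase times of 0, 30, 60, 120, 540 and 1440 min, and the authors fitted 1 half-life per transcript and line. These come without an error of the fit. The half-life sets are named for tagplus and tagtag, and the labels of the Nanos2TAG/+ and Nanos2TAG/TAG libraries call them CTL and EXP. The RNA-seq columns are headed Gp and GG and were matched to the Nanos2TAG/+ and Nanos2TAG/TAG libraries by these names alone, so each direction between the lines rests on this reading. SLAM-seq served to compare the stability of mRNAs that NANOS2 binds with that of others, and RNA-seq to scale the binding data.

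PP2A is a serine/threonine phosphatase built from a catalytic, a scaffold and a regulatory subunit. The catalytic and scaffold proteins form a core enzyme, and the regulatory subunit that joins the core sets its substrates and location. PP2A counteracts many kinases of growth factor signaling, among them AKT and p70S6K, and its B55 form opposes mitotic kinases until mitotic exit.

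The listed catalytic, scaffold and B55 genes stand in annotated pairs whose proteins are much alike and whose 3′ UTRs differ in length (GRCm38, GENCODE M21). The proteins of *Ppp2ca* (chr11:52098681-52127778, plus strand) and *Ppp2cb* (chr8:33599625-33619441, plus strand) are both 309 residues long and identical at 301 of them, or 97.4%. Their coding sequences are 82.1% identical, and no 50-base stretch of *Ppp2cb* occurs in a transcript of another gene, so reads of this length can tell the paralogs apart. The 3′ UTR is 5804 nucleotides in *Ppp2ca* and 247 in *Ppp2cb*. The scaffold proteins of *Ppp2r1a* (chr17:20945311-20965916, plus strand) and *Ppp2r1b* (chr9:50845301-50894229, plus strand) are 86.1% identical, with 3′ UTRs of 445 and 1609 nucleotides. *Ppp2r2a* (chr14:67014056-67072444, minus strand) and *Ppp2r2d* (chr7:138846079-138883057, plus strand) encode proteins of 89.9% identity and have 3′ UTRs of 2318 and 569 nucleotides. The B56 proteins are 66.5 to 78.8% identical in pairs.

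The study derived a heptamer consensus for NANOS2, and its forms were searched on the sense strand of 1 annotated 3′ UTR per gene, with overlapping matches counted. With G at the third base the heptamer is AUGAAAU or alternatively AUGAAUU, and with U at this base it is AUUAAAU or alternatively AUUAAUU. Of the 10 PP2A genes, 3 had a match, with 3 in *Ppp2ca*, 3 in *Ppp2r1b* and 2 in *Ppp2r2a*. A match was present in 37.7% of all 21028 annotated 3′ UTRs. In 3′ UTRs within 20% of the same length it was present in 88.6% for *Ppp2ca*, 50.5% for *Ppp2r1b* and 62.5% for *Ppp2r2a*. *Ppp2r5e* had no match in a 3′ UTR of 2833 nucleotides, where 70.3% of 3′ UTRs of like length had one. The other 6 genes, *Ppp2cb*, *Ppp2r1a*, *Ppp2r2d*, *Ppp2r5a*, *Ppp2r5c* and *Ppp2r5d*, have 3′ UTRs of 247 to 1002 nucleotides and no match. A match is a stretch of letters, and whether NANOS2 contacts it was not analysed here. The study names the *Ppp2ca* and *Ppp2r2a* transcripts among the targets of NANOS2. Its binding sites within them were not compared with these matches. All 8 matches are printed 5′ to 3′ as RNA, with the match in capitals and 10 bases on either side.
Ppp2ca, chr11:52122428-52122434: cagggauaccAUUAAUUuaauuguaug
Ppp2ca, chr11:52127613-52127619: gaaaagagaaAUGAAUUuaagacagcc
Ppp2ca, chr11:52127677-52127683: guacuccgguAUGAAAUucuuagaaca
Ppp2r1b, chr9:50893611-50893617: agagaucuuaAUGAAAUgaucucucca
Ppp2r1b, chr9:50893628-50893634: gaucucuccaAUGAAAUuaucaaucuu
Ppp2r1b, chr9:50893707-50893713: auuuuuaguuAUUAAAUcacaaaauga
Ppp2r2a, chr14:67015958-67015964: ucuuuuuuaaAUUAAAUacagcucauu
Ppp2r2a, chr14:67015593-67015599: cuugggcgcaAUGAAAUgaaguggguu
The matches of *Ppp2r1b* lie close together, at bases 991, 1008 and 1087 of its 3′ UTR. Those of *Ppp2ca* lie at bases 454, 5639 and 5703 of 5804, and those of *Ppp2r2a* at bases 410 and 775 of 2318.

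The mRNA levels are FPKM, that is reads per transcript length and library scale. The recovered reads summed to 10931439 in the Nanos2TAG/+ library and 11627842 in the Nanos2TAG/TAG library, and the values imply scaling factors equivalent to 10908790 and 11738620 reads, which are not the read totals. Median FPKM over all genes was 10.2 and 10.5 in this order. Of 9 genes taken as markers of undifferentiated spermatogonia 8 were listed, at 1.59 to 214 FPKM over both libraries. Their sum was 556 FPKM in the Nanos2TAG/+ library and 830.0 in the Nanos2TAG/TAG library. Of the 8, 4 were higher in the Nanos2TAG/TAG library, namely *Etv5* with 178 against 46.0 FPKM, *Ret* with 181 against 73.2, *Gfra1* and *Ddx4*. Lower in it were *Sall4* with 192 against 214 FPKM, *Zbtb16* with 102 against 107, *Nanos2* and *Id4*, so the sum does not speak for the whole list. All 4 markers of differentiating spermatogonia were listed, with sums of 224 FPKM in the Nanos2TAG/+ library and 167 in the Nanos2TAG/TAG library. *Sohlh2* alone supplied 173 and 125 FPKM of these sums. Of the 4, 1 was higher in the Nanos2TAG/TAG library, *Dmrtb1* with 4.86 against 3.67 FPKM. The labels state that feeders were depleted, and the study's methods that SSCs were gated from remaining feeders by scatter. How completely this gate removed them was not tested. Of 7 fibroblast markers 6 were listed, and 5 of the 6 were higher in the Nanos2TAG/TAG library. The 6 summed to 117 FPKM in it against 67.4. *Thy1*, which is not particular to fibroblasts, supplied 35.2 and 15.7 FPKM of these sums. Of 4 Sertoli cell markers 3 were listed, and all 3 were higher in the Nanos2TAG/TAG library, with sums of 26.5 and 5.35 FPKM. *Wt1* alone supplied 19.6 and 2.51 FPKM of these. None of the listed markers was at 0. The part of these cells in the PP2A values was not tested, and in such bulk RNA a smaller number of cells and less RNA per cell cannot be told apart.

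The PP2A subunit mRNAs were moderately abundant in SSCs. With the deposited lengths, all 8 with a level in the Nanos2TAG/+ library were above the median of all genes, and in the Nanos2TAG/TAG library all but *Ppp2r5e* were. *Ppp2ca*, the catalytic Cα gene, reached 32.4 FPKM (1354 reads) in the Nanos2TAG/+ library and 24.6 FPKM (1108 reads) in the Nanos2TAG/TAG library. The reads are those recovered from the FPKM and the annotated lengths. *Ppp2cb*, the catalytic Cβ gene, reached 15.9 FPKM (254 reads) and 13.7 FPKM (236 reads). With the deposited transcript lengths *Ppp2ca* made up 67.1% and 64.3% of the catalytic FPKM, but 52.4% and 49.3% with the lengths of the principal coding transcripts. The scaffold gene *Ppp2r1b*, which encodes the Aβ subunit, reached 64.5 FPKM (1272 reads) and 51.3 FPKM (1088 reads).

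Among regulatory genes, the B55α gene *Ppp2r2a* reached 29.8 FPKM (702 reads) in the Nanos2TAG/+ library and 22.1 FPKM (561 reads) in the Nanos2TAG/TAG library. The B55δ gene *Ppp2r2d* reached 47.0 FPKM (660 reads) and 42.5 FPKM (642 reads). Of these 2 mRNAs *Ppp2r2d* was the larger share, at 61.2% and 65.8% of their FPKM as deposited and 64.4% and 68.8% with principal transcript lengths. These shares are not of the whole B55 pool. Another B55 gene, *Ppp2r2c*, is not on the member list. It had 36.6 FPKM in the Nanos2TAG/+ library and 35.8 FPKM in the Nanos2TAG/TAG library as deposited, above *Ppp2r2a* in both. Of the B56 genes, which encode regulatory subunits of another fold than B55, *Ppp2r5a* (B56α) reached 68.7 FPKM (1078 reads) and 64.5 FPKM (1088 reads). *Ppp2r5c* (B56γ) reached 42.8 FPKM (1056 reads) and 28.7 FPKM (762 reads), a wider gap between the libraries. *Ppp2r5e* (B56ε) reached 12.6 FPKM (311 reads) and 8.64 FPKM (230 reads), the lowest level of the 8 in both libraries. The highest level exceeded the lowest 5.47-fold in the Nanos2TAG/+ library and 7.46-fold in the Nanos2TAG/TAG library. Summed over the listed genes, FPKM was 48.2 and 38.3 for the 2 catalytic genes, 64.5 and 51.3 for the 1 scaffold gene with a level, and 201 and 166 for the 5 regulatory genes with one.

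By the mean of both lines the order of the deposited levels was *Ppp2r5a*, *Ppp2r1b*, *Ppp2r2d*, *Ppp2r5c*, *Ppp2ca*, *Ppp2r2a*, *Ppp2cb* and *Ppp2r5e*. The values of the lines overlapped for 4 of the 7 neighboring pairs. *Ppp2r1b* and *Ppp2r2d*, *Ppp2r2a* and *Ppp2cb*, and *Ppp2cb* and *Ppp2r5e* were apart.

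**Figure D1:**
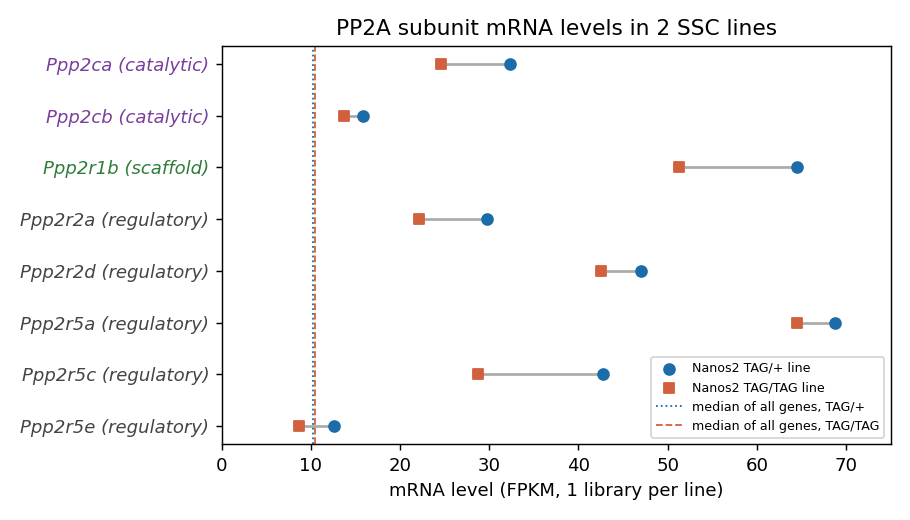
FPKM (horizontal axis) of the 8 PP2A subunit mRNAs with a level, as circles for the Nanos2TAG/+ library and squares for the Nanos2TAG/TAG library, with the medians of all genes as vertical lines. For each of the 8 genes the square lies to the left of the circle, and only *Ppp2r5e* in the Nanos2TAG/TAG library, at 8.64, lies below the median.

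The order of genes depends on the transcript length by which reads were divided. The deposited FPKM used the mean length of all annotated transcripts of a gene, short non-coding ones included, since this length gave whole read numbers for 100% of 13867 genes. For *Ppp2ca* it is 3834 nucleotides, the mean of 2 annotated transcripts, whereas the coding transcript has 7102. *Ppp2cb* has 1 annotated transcript of 1469 nucleotides and its value does not change. Divided by the length of the principal coding transcript, *Ppp2ca* had an FPKM of 17.5 in the Nanos2TAG/+ library and 13.3 in the Nanos2TAG/TAG library, against 15.9 and 13.7 for *Ppp2cb*. The ratio of *Ppp2ca* to *Ppp2cb* was 2.04 and 1.80 with the deposited lengths and 1.10 and 0.97 with the coding transcripts. The excess of the Cα mRNA over the Cβ mRNA was thus lost, and it turned in the Nanos2TAG/TAG library. *Ppp2r5c* moved from the fourth to the first place, with 52.4 and 35.1 FPKM, as its principal transcript of 1847 nucleotides is shorter than the mean of 2263. *Ppp2r5e* stayed in the last place, with 5.93 and 4.07. The length cancels in a comparison of the lines within a gene.

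**Figure D2:**
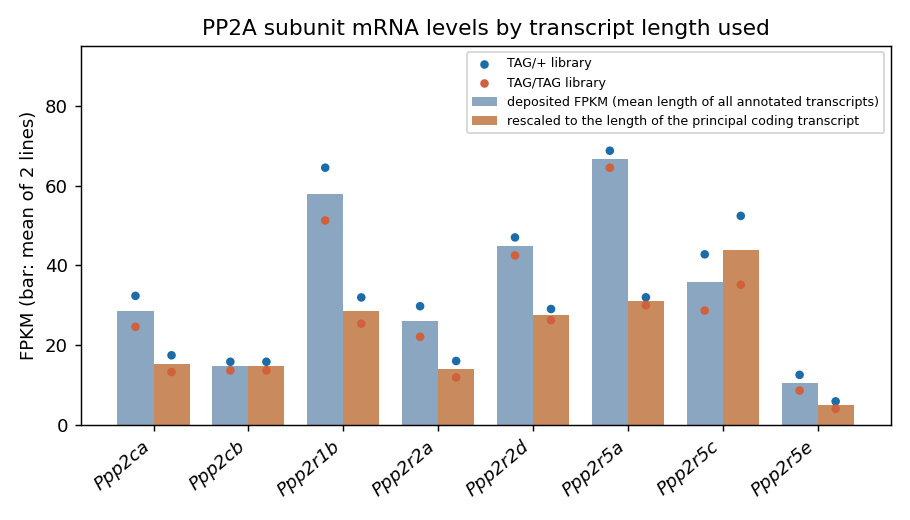
Mean FPKM of both lines (vertical axis) for 8 PP2A subunit mRNAs, as deposited and after division by the length of the principal coding transcript, with points for the 2 libraries. The bars of *Ppp2ca* and *Ppp2cb* differ as deposited (28.5 and 14.8) and are nearly level after rescaling (15.4 and 14.8).

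All 8 PP2A subunit mRNAs with a level had a lower FPKM in the Nanos2TAG/TAG library than in the Nanos2TAG/+ library. Among the 12546 genes with a mean FPKM of at least 1, 50.2% were lower in it. The differences ranged from 6.21% for *Ppp2r5a* to 32.9% for *Ppp2r5c*. On the log2(FPKM + 0.1) scale (Nanos2TAG/TAG over Nanos2TAG/+) the members had a median of -0.36, where all genes tested had a median of -0.0025 and quartiles of -0.43 and 0.46. None of the 8 passed a 1.5-fold difference, the fold limit used here, in either direction, whereas 18.6% of genes were lower and 20.8% higher by more than this. *Ppp2r5c* was closest to the limit, at 1.49-fold. None passed 2-fold either, where 8.67% of genes were lower and 11.7% higher. At a limit of 1.25-fold, 5 of the 8 were lower and 0 higher, against 30.9% of genes lower and 30.9% higher. The 5 were *Ppp2ca*, *Ppp2r1b*, *Ppp2r2a*, *Ppp2r5c* and *Ppp2r5e*.

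The B56 genes *Ppp2r5c* and *Ppp2r5e* differed most between the lines. The ratio of FPKM (Nanos2TAG/TAG over Nanos2TAG/+) was 0.671 for *Ppp2r5c*, with an exact 95% interval for read counting of 0.610 to 0.737. For *Ppp2r5e* it was 0.687, with an interval of 0.577 to 0.818. By contrast, for the third B56 gene with a level, *Ppp2r5a*, it was 0.938, and the interval of 0.861 to 1.02 held 1. The shares of these 3 B56 mRNAs therefore differed between the 2 libraries. As deposited, *Ppp2r5a* made up 55.4% of their FPKM in the Nanos2TAG/+ library and 63.3% in the Nanos2TAG/TAG library. These shares are not of the whole B56 pool, since *Ppp2r5d* had half-lives but no level. With principal transcript lengths *Ppp2r5a* made up 35.4% and 43.4%, and *Ppp2r5c* was the largest share with 58.0% and 50.8%. The share of *Ppp2r5a* was higher in the Nanos2TAG/TAG library with either length, whereas the leading gene of the 3 depended on the length.

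In the B55 family the ratio was 0.743 for *Ppp2r2a* (interval 0.663 to 0.831) and 0.904 for *Ppp2r2d* (interval 0.810 to 1.01). For the core enzyme it was 0.760 for *Ppp2ca* (interval 0.702 to 0.824), 0.863 for *Ppp2cb* (interval 0.720 to 1.03) and 0.795 for *Ppp2r1b* (interval 0.732 to 0.863). Summed over a class, FPKM was 20.6% lower for the catalytic genes, 20.5% lower for the scaffold gene and 17.2% lower for the regulatory genes. The listed catalytic and regulatory mRNAs thus stayed in a like proportion between the libraries. Catalytic FPKM per regulatory FPKM was 0.240 in the Nanos2TAG/+ library and 0.230 in the Nanos2TAG/TAG library. With principal transcript lengths it was 0.246 and 0.251. The proportion itself holds for this list only, since 7 other regulatory genes with a level are left out. Among these, *Strn4* alone had 200 and 134 FPKM.

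Counting error was smaller than the difference for 5 of the 8 genes, the same 5 as at the 1.25-fold limit, and intervals below 1 were found for 35.1% of genes tested. None of the 8 had an interval above 1, where 35% of genes did. These intervals cover the counting of reads in 2 libraries and not the variation between cultures. The principal transcripts of *Ppp2ca* and *Ppp2r1b* have exons of opposite-strand genes over 43.6% and 39.2% of their length. Whether reads were counted by strand is not given in the sources used here, so these 2 levels are uncertain. For *Ppp2r5a* 11.1% of 50-base stretches also occur in transcripts of other genes, and for *Ppp2r2a* 6.05%.

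**Figure D3:**
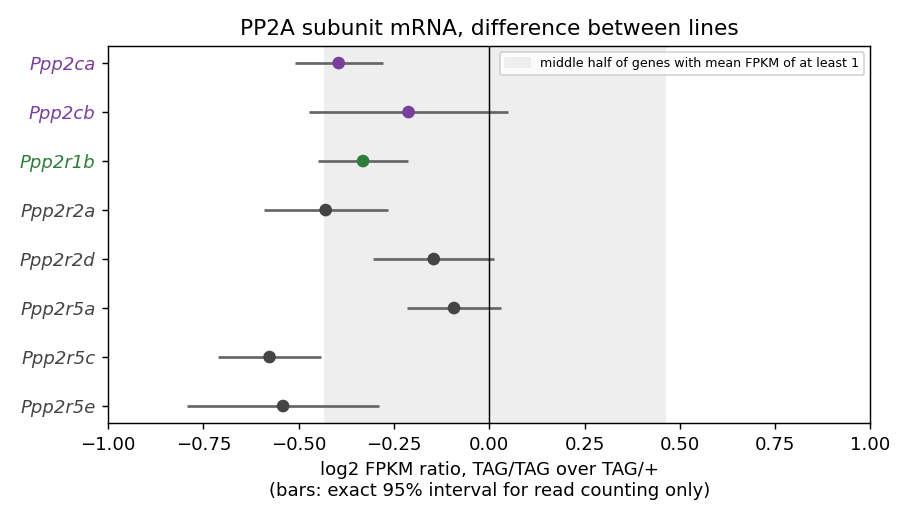
Log2 ratio of FPKM, Nanos2TAG/TAG over Nanos2TAG/+ (horizontal axis), for 8 PP2A subunit mRNAs, with exact 95% intervals for read counting as bars and the interquartile range of all 12546 genes tested shaded. All 8 points lie left of 0, and the bars of *Ppp2cb*, *Ppp2r2d* and *Ppp2r5a* cross it.

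The half-lives of PP2A subunit mRNAs spread from short to long, with *Ppp2cb* and the scaffold mRNA *Ppp2r1a* above the upper quartile of all transcripts in both lines. *Ppp2ca* lay above the median in the Nanos2TAG/TAG line, and in the Nanos2TAG/+ line it lay below the median and near the B55 mRNA *Ppp2r2d*. The median of all transcripts was 224 min in the Nanos2TAG/+ line and 226 min in the Nanos2TAG/TAG line, and 4 of the 8 members were above it in each line. *Ppp2cb* had 309 min in both lines, at percentile 79.5 and 76.9 of all transcripts. *Ppp2ca* had 213 min in the Nanos2TAG/+ line and 296 min in the Nanos2TAG/TAG line, at percentile 45.6 and 74.0. The catalytic paralogs, which encode nearly the same protein, therefore differed 1.45-fold in half-life in the Nanos2TAG/+ line and 1.04-fold in the Nanos2TAG/TAG line. The scaffold gene *Ppp2r1a*, which encodes the Aα subunit, had 305 and 306 min, at percentile 78.7 and 76.2.

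*Ppp2r2a* had the shortest half-life of the 8 in the Nanos2TAG/+ line, 121 min, and 179 min in the Nanos2TAG/TAG line. This placed it at percentile 12.0 and 32.0 of all transcripts. Its paralog *Ppp2r2d* had 207 and 172 min and was the shortest in the Nanos2TAG/TAG line. Among B56 genes, *Ppp2r5d* (B56δ) had the longest half-lives, 259 and 295 min, at percentile 64.9 and 73.7. *Ppp2r5a* had 232 and 188 min and *Ppp2r5e* 174 and 213 min, which crossed each other between the lines.

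The median half-life of the 2 catalytic mRNAs was 261 min in the Nanos2TAG/+ line and 302 min in the Nanos2TAG/TAG line. That of the 5 regulatory mRNAs with a half-life was 207 and 188 min. In the Nanos2TAG/TAG line both catalytic mRNAs and *Ppp2r1a* outlasted all 5 regulatory mRNAs, with *Ppp2ca* at 296 min and *Ppp2r5d* at 295 min nearly level. In the Nanos2TAG/+ line *Ppp2cb* and *Ppp2r1a* did so, whereas *Ppp2ca* lay below *Ppp2r5d* and *Ppp2r5a*. The genes of a class are not replicates, so the classes are described without a test. The order by the mean of the lines was *Ppp2cb*, *Ppp2r1a*, *Ppp2r5d*, *Ppp2ca*, *Ppp2r5a*, *Ppp2r5e*, *Ppp2r2d* and *Ppp2r2a*. The values of the lines overlapped for 5 of the 7 neighboring pairs. *Ppp2cb*, *Ppp2r1a* and *Ppp2r5d* did not overlap with each other, although *Ppp2cb* and *Ppp2r1a* were within 4 min of each other and the error of a single half-life is unknown.

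**Figure D4:**
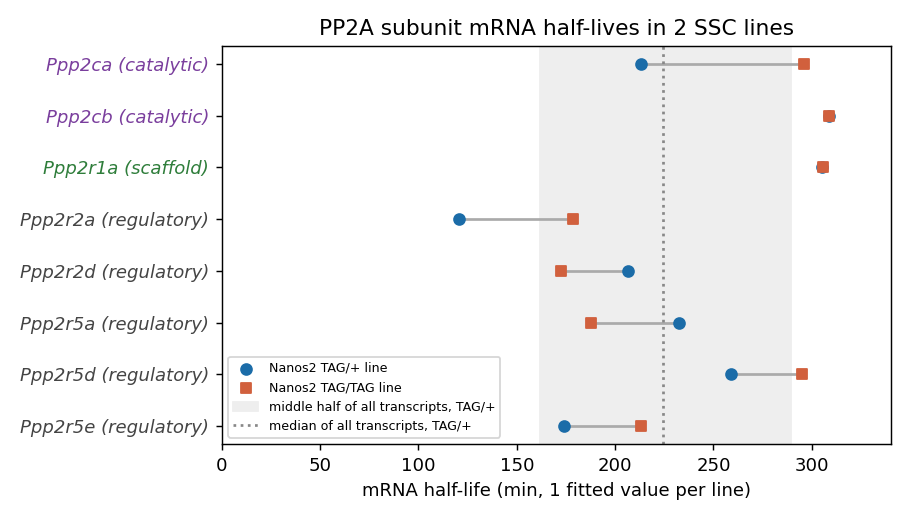
Half-life in min (horizontal axis) of the 8 PP2A subunit mRNAs with one, as circles for the Nanos2TAG/+ line and squares for the Nanos2TAG/TAG line, with the median and interquartile range of all transcripts in the Nanos2TAG/+ line. *Ppp2cb* and *Ppp2r1a* lie above 300 min in both lines, and *Ppp2ca* spans 213 to 296 min.

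Between the lines, half-lives of the members moved in both directions. None of the 8 passed 1.5-fold, where 10% of transcripts were longer and 10.7% shorter by more than this in the Nanos2TAG/TAG line. None passed 2-fold, where 3.05% were longer and 3.67% shorter. *Ppp2r2a* was closest to the limit, with a ratio of 1.48 (Nanos2TAG/TAG over Nanos2TAG/+), followed by *Ppp2ca* with 1.39. These 2 passed 1.25-fold, against 22.1% of transcripts longer and 20.4% shorter at that limit. *Ppp2r5e* and *Ppp2r5d* were longer in the Nanos2TAG/TAG line by 1.22-fold and 1.14-fold, and *Ppp2r5a* and *Ppp2r2d* were shorter, with ratios of 0.808 and 0.834. The ratios of *Ppp2cb* and *Ppp2r1a* were both 1.00. The members had a median absolute log2 ratio of 0.28 and all transcripts 0.27, so the half-lives of PP2A mRNAs were about as alike in both lines as those of other mRNAs.

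Of the 6 genes with both measurements, *Ppp2ca*, *Ppp2r2a*, *Ppp2r5e* and *Ppp2cb* had a lower FPKM and a longer half-life in the Nanos2TAG/TAG line, the last by 0.22 min only. *Ppp2r2d* and *Ppp2r5a* had a lower FPKM and a shorter half-life. *Ppp2r5a* had the highest deposited level of the 8 and a half-life close to the median in the Nanos2TAG/+ line and below it in the other, and *Ppp2cb* had one of the lowest levels and the longest half-life. Level and half-life therefore did not rank these genes alike.

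The remaining PP2A machinery was described through a list of 23 further genes for subunits, assembly factors, inhibitors and the kinase MASTL, of which 21 had a level and 14 had half-lives. FPKM was lower in the Nanos2TAG/TAG library for 15 of the 21, where 50.2% of all genes tested were lower, a share against which the following counts are also to be read. Other regulatory subunits were lower in 6 of 7 cases, with a median log2 ratio of -0.11, and factors of assembly and activation in 3 of 5, with a median of -0.14. Inhibitors were lower in 6 of 8, with a median of -0.21, and *Mastl* was higher, with 8.03 against 7.53 FPKM. Past 1.5-fold were *Ensa* and *Anp32a*, both inhibitor genes and both lower, where 18.6% of genes tested were lower by as much. *Anp32a* was named after its values were seen, with an FPKM of 30.2 in the Nanos2TAG/+ library and 16.0 in the Nanos2TAG/TAG library, from 270 and 154 reads.

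All 6 inhibitor mRNAs with half-lives were longer-lived in the Nanos2TAG/TAG line, with a median log2 ratio of 0.43, where all transcripts had 0.04 and 45.9% of transcripts were shorter. *Ensa*, whose phosphorylated protein blocks the B55 form of PP2A in mitosis, had the largest ratio, 2.73. Its half-life was 170 min in the Nanos2TAG/+ line and 466 min in the Nanos2TAG/TAG line, and 3.05% of transcripts were longer by more than 2-fold. FPKM of *Ensa* was 107 and 70.8, so level and half-life differed in opposite directions. Its paralog *Arpp19*, named after its values were seen, had 309 and 324 min. *Bod1*, a PP2A-B56 inhibitor at kinetochores, had 1147 and 2008 min, of which the second is above the last chase time of 1440 min and so beyond what was followed. By the mean of the lines the longest half-life after *Bod1* was that of *Ptpa*, which encodes the PP2A activator, with 368 and 405 min. The shortest were those of the regulatory gene *Ppp2r3a*, with 92.8 and 64.3 min, and of *Tiprl*, which encodes a protein that binds catalytic subunits of PP2A and its relatives, with 97.3 and 129 min. Both had shorter half-lives in each line than any of the 8 members.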

How the data were processed

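The deposited RNA-seq table holds FPKM computed by the authors for 1 Nanos2TAG/+ and 1 Nanos2TAG/TAG library. The submitters' processing notes name kallisto for these samples, with no version, and the annotation is not given in the sources used here. For the deposited half-lives in minutes, the authors scored conversions with SlamDunk, scaled them to the start of the chase, merged technical replicates and fitted exponential decay with nls in R. The filter behind the 5806 transcripts is not given in the sources used here. CRAC libraries were not analysed here.

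Reads were recovered as FPKM times the mean transcript length (GENCODE M21), and were whole within 0.01 for 100% of 13867 genes in both libraries. The remaining 37 genes had no single annotated gene. Such reads may be rounded estimates. Log2 ratios used a pseudocount of 0.1, and genes with a mean FPKM of at least 1 served as background. Intervals are exact (Clopper-Pearson) at 95% and cover counting error only. With 1 value per line no p-value was computed. The 3′ UTR was that of the APPRIS principal coding transcript, with the longest 3′ UTR taken among ties. Protein identity was taken over aligned residues of translated coding sequences.

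All 10 members were named, and of other PP2A genes those past 2-fold between the lines and those with the 2 longest and 2 shortest mean half-lives. *Strn4* and *Ppp2r2c* were named for their levels, after their values were seen. Members and lists were chosen with earlier results of these data known. Alternatives were other pseudocounts, filters, fold limits, centring, each line alone, class means and another gene length. Scripts were tested on simulated data. Python 3.11.15, numpy 2.4.6, pandas 2.3.3, scipy 1.17.1, Biopython 1.88 and matplotlib 3.10.9 were used.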

Additional observations from a re-analysis of the deposited data

How the results depend on the processing

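Each mRNA level, half-life and class value was within 1 SD of the value over both lines when either line was used alone. Where that value is the mean of the 2 lines, this follows from the arithmetic. The regulatory median half-life, 194 min, is a median of gene means instead, against 207 and 188 min by line. The counts of members past the fold limit were 0 for FPKM and 0 for half-life with a pseudocount of 1 (FPKM), a limit of 2-fold, no filter or a minimum mean FPKM of 5, centring on the median, and without transcripts above 1440 min. All 8 members kept a lower FPKM in the Nanos2TAG/TAG library with a pseudocount of 1, with centring and with scaling to the sum of recovered reads. Other alternatives were added after seeing the data. At 1.25-fold 5 members passed for FPKM and 2 for half-life, and 5 had a counting interval below 1. With the length of the principal coding transcript, summed FPKM was 30.2 for catalytic, 28.7 for scaffold and 121 for regulatory genes, against 43.3, 57.9 and 184 as deposited. Genes past the limit made up 39.4% for FPKM at 1.5-fold, 20.3% at 2-fold and 61.8% at 1.25-fold, and transcripts past it for half-life 20.7%, 6.72% and 42.5%, respectively. *Ppp2cb* (254 and 236 reads) and *Ppp2r5e* (311 and 230 reads) had the fewest reads of the members and so the widest counting intervals. No paired analysis was possible because each line has 1 RNA-seq library and 1 fitted half-life per transcript.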

Other observations

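PP4 and PP6 are sister phosphatases of PP2A, with related catalytic subunits and regulatory subunits of their own. Of 10 genes on the list 9 had a level. FPKM was lower in the Nanos2TAG/TAG library for 6 and higher for 3, where 50.2% of genes tested were lower. Their median log2 ratio was -0.30. The PP4 catalytic gene *Ppp4c* had an FPKM of 136 in the Nanos2TAG/+ library and 138 in the Nanos2TAG/TAG library, and the PP6 catalytic gene *Ppp6c* had 31.3 and 25.4. None of the 9 passed 1.5-fold, where 18.6% of genes were lower and 20.8% higher by as much. Half-lives of 5 of these genes were listed, 2 longer and 3 shorter in the Nanos2TAG/TAG line, where 45.9% of transcripts were shorter. The PP4 regulatory genes *Ppp4r3a* and *Ppp4r3b*, whose proteins direct PP4 to its substrates, were the longer pair, with 201 and 355 min for *Ppp4r3a* and 108 and 161 min for *Ppp4r3b*. *Ppp4r3a* passed 1.5-fold, where 10% of transcripts were longer by as much. *Ppp6r3*, a PP6 regulatory gene, had 221.5 and 158 min. These sister phosphatase genes were named after their values were seen.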
